A study of Mus musculus with 16 samples.

Results

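The caveolae and diaphragm genes followed here are 7 genes of endothelial cells (ECs): Plvap, Cav1, Cav2, Ptrf (now Cavin1), Sdpr (now Cavin2), Prkcdbp (now Cavin3) and Ehd2. They were taken by name from 38926 gene rows in the table of mpECs and bmECs, from 38926 in the Lats2 table and from 21603 in the Yap1/Taz table. All 7 were found in each table and all 7 passed the filter on low values, a mean of at least 1 FPKM (fragments per kilobase of gene, scaled to the mapped fragments of the library), in every comparison.

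RNA sequencing had been done on 16 libraries of FACS-sorted bone ECs from C57BL/6 mice. Wildtype mpECs and bmECs (n = 3 each) came from the metaphysis and the diaphyseal bone marrow of the Cdh5-mTnG reporter line, which marks ECs. At postnatal day 21, Yap1flx/flx; Wwtr1flx/flx mice that were Cdh5CreERT2 negative (control, n = 3) were set against Cdh5CreERT2 positive ones (labelled ECKO, n = 3), so that floxed Yap1 and Wwtr1 (the gene of Taz) were in both groups. Likewise, Lats2flx/flx mice were Cdh5CreERT2 negative (control, n = 2) or positive (cKO, n = 2). The Cre is a tamoxifen-inducible transgene driven by the endothelial Cdh5 promoter, and controls were littermates. By the study's methods the animals were 3 weeks old. The study's methods speak of biological triplicates, but the sources used here do not say how many animals went into a library, and p-values measure the spread between these libraries.

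Caveolae are flask-shaped pits of the plasma membrane that are abundant in capillary endothelium, where they store membrane for stretch and take part in uptake and signalling. Caveolin-1, encoded by Cav1, is inserted in the membrane and is needed for the pit, caveolin-2 (Cav2) assembles with it, and cavin-1 (Ptrf) builds the outer coat without which caveolins stay dispersed. Cavin-2 (Sdpr) and cavin-3 (Prkcdbp) join the cavin coat, and Ehd2, an ATPase, sits at the neck and holds the pit at the surface. Plvap is an endothelial protein that forms the thin diaphragms across the necks of caveolae and across fenestrae and is abundant in the sinusoids of bone marrow.

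Cav2 and Cav1 are neighbours on the plus strand of chromosome 6 (GRCm38, chr6:17281185-17289115 and chr6:17306335-17341452, 17.2 kb from the end of Cav2 to the start of Cav1). The other members lie apart, Plvap on chromosome 8 (chr8:71497765-71511752), Ptrf on chromosome 11 (chr11:100956733-100970887), Sdpr on chromosome 1 (chr1:51289126-51302960), and Prkcdbp and Ehd2 on chromosome 7 (chr7:105480083-105482300 and chr7:15946958-15967567). In the annotation, 22.5% of the exon bases of Prkcdbp overlap Gm45667 on the other strand. The kit keeps strand, but whether the counting used it is not given in the sources used here, so reads of these 2 genes may have been mixed.

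The 250 bases before the start site are shown for Cav1 and Cav2, because these adjacent genes moved together in the Lats2 libraries but by different amounts. For Ptrf, which also moved there, the 30 bases around its one TEAD motif are shown, since TEAD factors are the DNA-binding partners of Yap1 and Taz. The sequences are from RefSeq (GRCm38.p6), 5′ to 3′ on the strand of the gene. Capitals mark the TEAD motif (GGAATG or CATTCC) and the hypoxia response cores ACGTG or CACGT and GCGTG or CACGC, searched on both strands.
Cav1 (chr6:17306085-17306334, plus strand): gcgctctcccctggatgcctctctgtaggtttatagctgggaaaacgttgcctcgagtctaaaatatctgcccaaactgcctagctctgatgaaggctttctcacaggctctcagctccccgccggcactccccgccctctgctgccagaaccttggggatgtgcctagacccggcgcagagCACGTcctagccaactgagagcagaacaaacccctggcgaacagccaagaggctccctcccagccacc
Cav2 (chr6:17280935-17281184, plus strand): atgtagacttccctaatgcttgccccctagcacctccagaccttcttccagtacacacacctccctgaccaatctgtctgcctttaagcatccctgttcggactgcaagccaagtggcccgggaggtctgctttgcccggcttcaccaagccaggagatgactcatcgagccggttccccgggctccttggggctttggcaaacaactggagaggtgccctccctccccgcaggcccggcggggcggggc
Ptrf (chr11:100970838-100970867, minus strand): tcaCATTCCtctgccccagtcccgctgccg

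The window of Cav1 holds 1 CACGT and no TEAD motif, and that of Cav2 holds neither. Ptrf holds 1 CATTCC and no hypoxia core, in a window whose 250 bases all lie within the first exon of Cavin1 in the GENCODE annotation, which starts the gene further upstream. The windows of Sdpr and of a second Cav1 start hold none of these motifs, and that of Ehd2 holds 2 CACGC. No window was available for Plvap or Prkcdbp, so these members were not searched. Over 32817 promoter windows of the same length, 12.6% hold the TEAD motif, 16.6% ACGTG, 28.1% GCGTG and 38.6% either hypoxia core. A match describes the letters of the window and is no evidence of binding.

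The targeted genes were examined first. In the Yap1/Taz table, Yap1 was at 1.23 ± 0.339 FPKM (SD, n = 3) in control and 1.15 ± 0.245 in the libraries labelled ECKO (limma, log2 fold change -0.04, adjusted p = 0.934). Wwtr1 was higher, not lower, in the libraries labelled ECKO, at 18.1 ± 2.48 against 10.1 ± 0.24 FPKM (log2 fold change 0.78, limma adjusted p = 0.0272). These gene-wide values therefore do not show a lower level of either gene in the libraries labelled ECKO. The deleted exons are not given in the sources used here, and the study's checks of the deletion by quantitative PCR and immunostaining are not analysed here, so directions below follow the labels. Lats2 was at 23.7 ± 0.471 FPKM in control and 19.2 ± 0.0108 in cKO (n = 2 each; limma adjusted p = 0.125), with both cKO libraries below both controls.

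Reads on genes, recovered from the FPKM values, came to 11550914 to 15441307 per library for mpECs and bmECs, and to 4874821 to 7338172 in the other libraries. All 10 fixed endothelial markers, Cdh5 and Tie1 among them, were above 0 in every group. Erythroid and neutrophil transcripts were abundant in every table, with summed levels of 5 erythroid markers of 17614.6 to 37674 FPKM in mpECs and bmECs. In bulk samples, fewer cells of a type and less RNA per cell cannot be told apart. One bmEC library, replicate 2, stood apart for Cav1, Cav2 and Ptrf, which are given with and without it below. No replicate pair was alike within counting noise (reduced chi-square of 3.23 or more over genes).

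Before any comparison, the levels themselves were unequal. In mpECs, mean levels in FPKM, which are per length, ran from Prkcdbp (495) and Plvap (414), whose ranges overlapped, through Sdpr (204), Ptrf (140) and Cav1 (115), the last 2 overlapping, to Cav2 (81.4) and Ehd2 (46.8). In bmECs, Plvap (764) led, Prkcdbp (366) and Sdpr (346) overlapped, Ptrf (142) followed, and Cav2 (61.5), Cav1 (45.0) and Ehd2 (43.4) each overlapped with the next. By these means Cav1 was the fifth of the 7 in mpECs and the sixth in bmECs, where its values were also the most scattered (coefficient of variation 94.2%). In bmEC replicates 1 and 3 Cav1 was the lowest of the 7 (17.8 and 23.4 FPKM). In bmEC replicate 2 it was above Ehd2 (93.8 against 43.7).

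In the Lats2 controls, Plvap was the third most abundant of all gene rows in both libraries (3060.5 ± 51.4 FPKM) and made up 67.6% to 71.2% of the summed level of the 7 members. In Lats2 cKO its share was 49.1% to 51.4%, and Cav1 stood in the second place of the 7, above Prkcdbp and with overlap, where in control it came after Prkcdbp and Sdpr, the latter with overlap. In the Yap1/Taz table all members were lower on the FPKM scale, with Cav2 last at 3.13 ± 0.541 in control, which rests on 36 to 82 reads a library over both groups. The 7 members together took 0.283% to 0.430% of all FPKM in mpECs and bmECs, 0.0756% to 0.110% in the Yap1/Taz libraries and 1.2004% to 1.31% in the Lats2 libraries. The 3 tables were normalized separately, and no test was made across them.

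**Figure D1:**
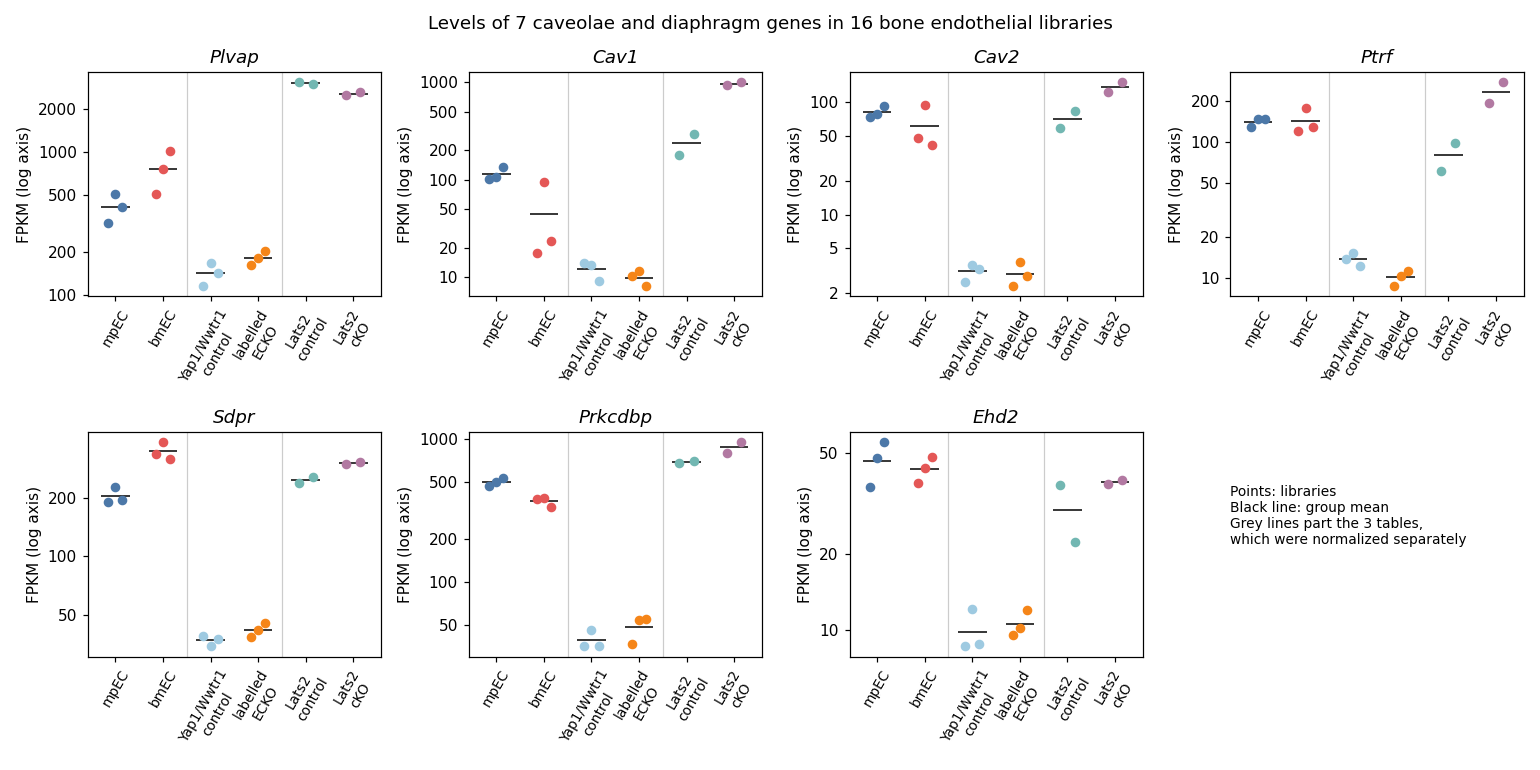
Level of each of the 7 members in FPKM (log axis) in every library, by group, with points for libraries and black lines for group means. Cav1 of bmEC replicate 2 (93.8 FPKM) sits near the mpECs (103 to 134), while the other bmEC libraries are at 17.8 and 23.4, and both Lats2 cKO libraries (932 and 1009) sit above both controls (181 and 297).

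The comparison of bmECs with mpECs asked how ECs of the diaphyseal marrow differ from those of the metaphysis. Of the 7 members, Sdpr and Plvap rose and Prkcdbp fell, so that 3 of 7 passed the test (limma, adjusted p under 0.05), while 23.5% of the 11422 genes tested did so (13.0% higher and 10.5% lower). Cav1, the scaffold of the pit, was lower in all 3 bmEC libraries but did not pass. Ptrf and Ehd2 had fold changes near 0. The median log2 fold change of the members was -0.09, against -0.00068 for all genes tested.

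Plvap, the diaphragm protein, was at 321, 506 and 414 FPKM in mpECs and at 509, 764 and 1020.4 in bmECs. The groups did not overlap, but the highest mpEC library and the lowest bmEC library were nearly level. The ratio of the means was 1.85 (log2 fold change 0.85 ± 0.258 SE, limma adjusted p = 0.0482). That call was close to the threshold and was lost in 9 of 15 alternative fits (adjusted p from 0.00554 to 0.184), among them those without bmEC replicate 2 (0.122), bmEC replicate 3 (0.118), mpEC replicate 1 (0.126) or mpEC replicate 3 (0.114). The log2 fold change stayed above 0 in all 15, from 0.61 to 1.12.

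Sdpr, cavin-2, was at 190, 227 and 196 FPKM in mpECs and 335, 386 and 318 in bmECs. The bmEC libraries were all higher and the groups were far apart relative to their spread. The ratio was 1.70 (log2 fold change 0.76 ± 0.107 SE, limma adjusted p = 0.00186), and it passed in all 15 alternative fits.

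Prkcdbp, cavin-3, went the other way, from 464, 495 and 528 FPKM in mpECs to 378, 384 and 335 in bmECs, again with no overlap. The ratio of bmECs to mpECs was 0.738 (log2 fold change -0.44 ± 0.0927 SE, limma adjusted p = 0.0119), and 13 of 15 alternative fits kept the call. It was lost on scaling by the 10 endothelial genes (adjusted p = 0.253) and without mpEC replicate 3 (0.0559). The share of the 2 cavins relative to each other therefore changed within each library: Sdpr stood at 0.372 to 0.458 of Prkcdbp in mpECs and at 0.886 to 1.00 in bmECs.

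Cav1 was at 103, 107 and 134 FPKM in mpECs and at 17.8, 93.8 and 23.4 in bmECs. All bmEC values lay below all mpEC values, but replicate 2 was close to the mpECs and the other 2 were far below. The log2 fold change was -1.71 ± 0.528 SE (limma adjusted p = 0.0514), which missed the threshold. Without bmEC replicate 2 it was -2.43 (limma adjusted p = 0.000231), and without another library it ran from -1.78 to -1.26 with adjusted p of 0.0919 to 0.144. Limma-voom on recovered reads gave -1.94 (adjusted p = 0.0141), in a fit where the median of all genes was -0.21. Of 15 alternative fits, 5 passed.

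Cav2 followed the same libraries with a smaller spread, at 73.5, 78.4 and 92.2 FPKM in mpECs and 47.9, 95.1 and 41.6 in bmECs. Here the groups overlapped, since bmEC replicate 2 was the highest of the 6, and the log2 fold change was -0.49 ± 0.276 SE (limma adjusted p = 0.244), or -0.85 without that library (0.00555). Ptrf was highest in the same library, at 120, 177 and 129 FPKM in bmECs against 128, 147 and 145 in mpECs. Its log2 fold change was 0.0028 (95% interval -0.33 to 0.34, limma adjusted p = 0.992) and turned to -0.16 without bmEC replicate 2, to -0.06 without mpEC replicate 1, and to -0.10, -0.01 and -0.20 with quantile normalization, median-ratio scaling and limma-voom. Ehd2 was at 37.0, 48.0 and 55.4 FPKM in mpECs and 38.2, 43.7 and 48.3 in bmECs, with the bmECs inside the mpEC range (log2 fold change -0.09, 95% interval -0.45 to 0.26, limma adjusted p = 0.703; 0.04 without mpEC replicate 3). In all, the groups did not overlap for 4 of the 7 members, Plvap, Cav1, Sdpr and Prkcdbp, while 41.3% of all genes tested did not overlap (22.1% higher and 19.2% lower).

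Other transcripts set bmEC replicate 2 apart with Cav1. Among the 6731 genes at 5 FPKM or more in that library, Cav1 was eighth by its excess over both other bmEC libraries (1.96 on the log2 scale), in an order led by Timp4 (53.9 against 0.944 and 1.26 FPKM), C1qtnf9 (21.8 against 0.255 and 1.52) and Aqp7 (10.1 against 0.215 and 0.541), genes chosen after their values were seen. The summed level of 8 smooth muscle and pericyte markers was 2.58, 27.6 and 7.02 FPKM in bmEC replicates 1, 2 and 3. It was 21.7, 27.1 and 21.3 in mpEC replicates 1, 2 and 3, where Cav1 was at 103, 107 and 134. Of the 3 tested genes of this list, Acta2, Tagln and Rgs5, limma called 0 between the groups, with 1 at an unadjusted p under 0.05 and 1 called by limma-voom. Most of the sum was Rgs5, a pericyte marker, at 21.9 FPKM in bmEC replicate 2 and 1.10 and 5.06 in the other bmEC libraries, against 15.5 to 22.7 in mpECs. Cav3 and Murc (cavin-4), the caveolin and the cavin of muscle, were listed at 0 in all 6 libraries. These values do not tell whether smooth muscle cells or pericytes were in the libraries. Both groups were sorted on the endothelial Cdh5-mTnG reporter, but blood cell transcripts remained. Erythroid sums were 17615 to 37674 FPKM and neutrophil sums 8157 to 23748 FPKM over these libraries. Smooth muscle cells and adipocytes also have caveolae, and the part of such cells in the values of Cav1, Cav2 and Ptrf was not tested.

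For the other lists, 4 of 6 tested osteoblast markers and 2 of 2 chondrocyte markers were lower in bmECs (osteoblast sum 139 to 737 FPKM in mpECs and 42.9 to 55.2 in bmECs, chondrocyte sum 12.8 to 16.4 and 0.0116 to 0.121). Of 2 tested adipocyte markers, Adipoq was higher (19.3 against 6.41 FPKM, log2 fold change 1.495, limma adjusted p = 0.00278), and the sum of 5 was 17.6 to 24.7 in bmECs against 6.27 to 10.6. Of the 10 endothelial markers, 1 was higher and 2 were lower, with a median log2 fold change of 0.04. Of the blood cell lists, limma called 1 of 5 macrophage and monocyte markers, Lyz2, which was lower, and 0 of the erythroid, neutrophil, B cell and megakaryocyte lists, where 1, 3, 1 and 0 markers had an unadjusted p under 0.05 and limma-voom called 0, 3, 1 and 0. Marrow stroma had 1 marker higher (Lepr) and 1 lower (Kitl) of 4.

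The relations between members within a library showed the same division. Cav1 was 0.732 to 0.920 of Ptrf in mpECs, and 0.148, 0.530 and 0.181 of it in bmECs. It was 1.37 to 1.45 times Cav2 in mpECs and 0.371, 0.987 and 0.562 times Cav2 in bmECs. Plvap was 3.10 to 4.71 times Cav1 in mpECs, 28.6 and 43.7 times in bmEC replicates 1 and 3, and 8.14 times in bmEC replicate 2. Even that library thus lay outside the mpEC range for all 3 ratios. These ratios need no scaling between libraries. All 3 share Cav1, whose groups did not overlap by itself, so they are not separate results. The share of such ratios over all genes was not computed, and the ratios were not tested.

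**Figure D2:**
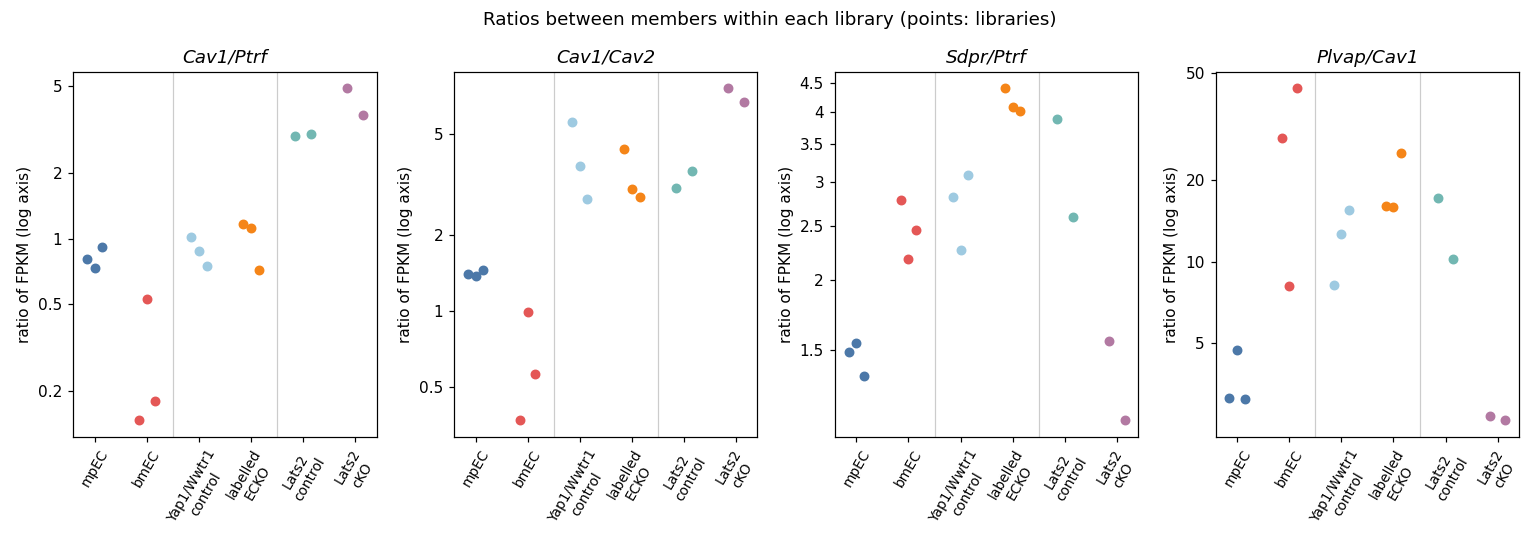
Ratios of FPKM between pairs of members within each library (log axes), by group, with points for libraries. Plvap/Cav1 is above the mpECs (3.10 to 4.71) in every bmEC library and is 2.60 and 2.69 in Lats2 cKO against 10.2 and 17.1 in control.

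Related genes of uptake at the membrane were read next. Of 6 tested caveolar relatives and accessory genes, 1 was higher and 3 were lower in bmECs. Ehd3, a relative of Ehd2, rose from 30.7 to 113 FPKM (log2 fold change 1.84, limma adjusted p = 2.48e-05), and Ehd4 fell from 45.9 to 15.1 (-1.54, 3.24e-05), while Ehd1 (0.35, limma adjusted p = 0.0655) and Ehd2 did not pass. Flna, an actin crosslinker that binds caveolin-1, fell from 14.2 to 8.27 FPKM (-0.72, limma adjusted p = 0.00224). Pacsin2, a membrane-bending protein of the caveolar neck, fell from 18.7 to 12.2 FPKM (-0.59, limma adjusted p = 0.00609). Both flotillins, which scaffold a separate kind of membrane domain, were higher (Flot2 log2 fold change 1.18, limma adjusted p = 8.05e-05, and Flot1 0.34, 0.0303). Among 16 tested genes of the clathrin coat and its adaptors, the main alternative route of uptake, 8 were higher and 0 lower. Over all genes tested, limma called 13.0% higher and 10.5% lower. Limma-voom called 6 of these 16 clathrin genes and 1 of the 2 flotillins. Fcho2, an early factor of the clathrin pit, was at 44.4 against 22.9 FPKM (0.93, limma adjusted p = 0.00192), Cltc, the clathrin heavy chain, at 97.3 against 58.7 (0.72, 0.00107), and Ap2a2 and Eps15 followed (0.54 and 0.53).

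Proteins described in endothelial caveolae were split, 4 higher and 4 lower of 9 tested. Cd36, a fatty acid receptor, was at 806 FPKM in bmECs against 208 in mpECs (log2 fold change 1.92, limma adjusted p = 0.000861), and Insr, the insulin receptor, and Aqp1, a water channel, rose with it (1.08 and 0.83). Nostrin, which traffics endothelial nitric oxide synthase, fell from 13.1 to 4.58 FPKM (-1.33, limma adjusted p = 0.000123). In barrier endothelium, as in brain, caveolae and Plvap are low, and of 5 tested genes of that kind 3 were higher and 1 lower in bmECs beside the higher Plvap: Slc2a1 (0.72), Cldn5 (0.58) and Abcb1a (1.01) rose and Cgnl1 fell (-0.84).

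**Figure D3:**
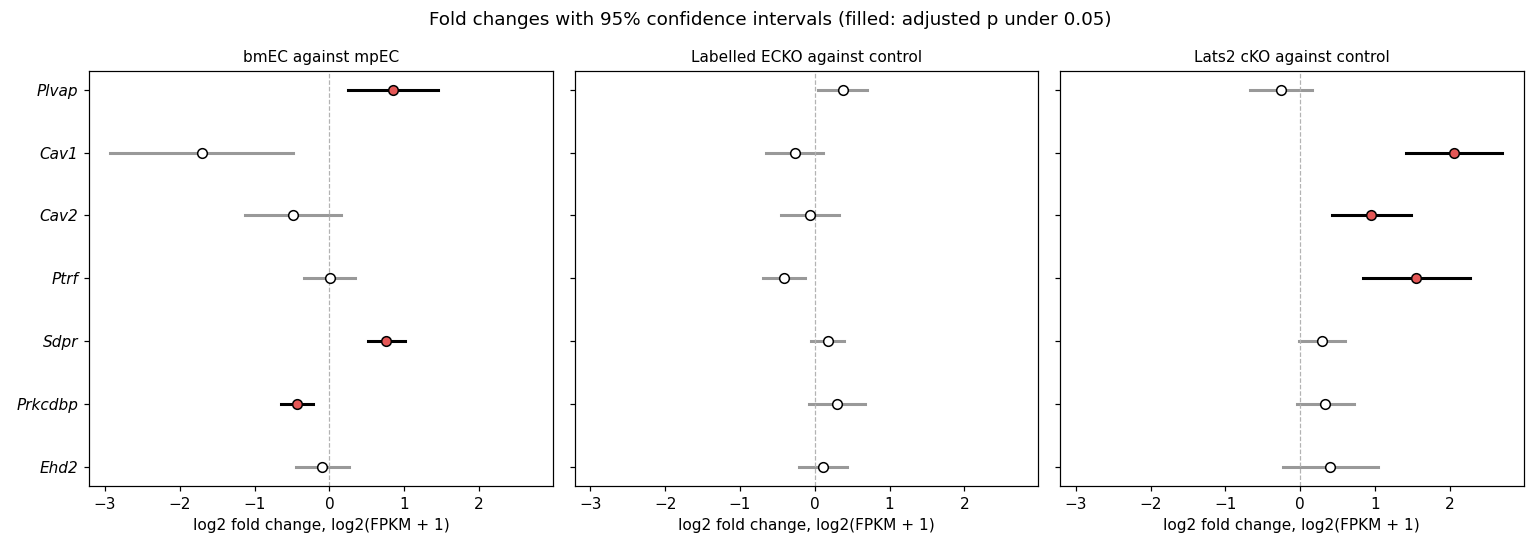
Log2 fold change of each member in the 3 comparisons on the scale of log2(FPKM + 1), with 95% confidence intervals from limma as bars and filled points for adjusted p under 0.05. Filled points are Plvap, Sdpr and Prkcdbp for bmECs against mpECs and Cav1, Cav2 and Ptrf for Lats2 cKO against control, while the comparison by the label ECKO has none.

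The comparison of libraries labelled ECKO with controls asked what loss of Yap1 and Taz in ECs does to these genes. By limma 0 of the 7 members passed, with 1.31% of the 11320 genes tested passing (0.883% higher and 0.424% lower). Limma-voom on recovered reads also called 0 members, and 2 members, Ptrf and Plvap, had an unadjusted p under 0.05 by limma, as 2023 of all genes tested did. The median log2 fold change was 0.10 over the members and -0.0047 over all genes.

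Ptrf was at 13.8, 15.2 and 12.3 FPKM in control and 8.72, 10.3 and 11.3 in the libraries labelled ECKO. These groups did not overlap, which held for this 1 member of 7 and for 23.6% of all genes tested. The log2 fold change was -0.41 ± 0.125 SE (limma adjusted p = 0.125). With each library scaled by the 10 endothelial genes it was -0.72 (adjusted p = 0.0119), a scaling that moved the median of all genes by -0.29.

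Plvap was at 115, 169 and 142 FPKM in control and 162, 182 and 204 in the libraries labelled ECKO, with overlap between 162 and 169. Its log2 fold change was 0.37 (95% interval 0.05 to 0.69, limma adjusted p = 0.219). The 10 endothelial markers had a median of 0.28, with 0 called by limma, 8 at an unadjusted p under 0.05 and 1 called by limma-voom, and a summed level of 514 to 559 FPKM in control and 610 to 706 in libraries labelled ECKO. Per mean endothelial level, Plvap was 2.62 to 3.31 in control and 2.92 to 3.21 in the libraries labelled ECKO, the latter inside the former.

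Cav1 was at 14.1, 13.4 and 9.15 FPKM in control and 10.1, 11.5 and 8.07 in the libraries labelled ECKO, which overlapped (log2 fold change -0.27, 95% interval -0.65 to 0.12, limma adjusted p = 0.451). Cav2 was at 2.53, 3.57 and 3.29 in control against 2.31, 3.80 and 2.85 (-0.06, -0.45 to 0.33, limma adjusted p = 0.898), also with overlap. Neither caveolin was therefore separated by the label.

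Sdpr was at 38.8, 34.5 and 37.8 FPKM in control and 38.4, 41.8 and 45.4 under the label ECKO (log2 fold change 0.17, limma adjusted p = 0.408), and Prkcdbp at 35.4, 46.04 and 35.6 against 36.6, 53.9 and 55.1 (0.30, 0.381). Ehd2 was at 8.59, 12.05 and 8.81 against 9.53, 10.1 and 12.01 (0.10, limma adjusted p = 0.758). All 3 overlapped between groups, and all 3 turned below 0 with scaling by the endothelial genes (-0.15, -0.03 and -0.19). Relative to Ptrf within a library, Sdpr stood at 2.27 to 3.08 in control and 4.02 to 4.41 in the libraries labelled ECKO. Prkcdbp stood at 2.57 to 3.02 and 4.202 to 5.25, and Ehd2 at 0.623 to 0.791 and 0.988 to 1.09. None of these ratios overlapped between groups, and they need no scaling. They all share Ptrf, the only member whose groups did not overlap by itself. The share of such ratios over all genes was not computed. The ratios were not tested.

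In the same comparison, the caveolar relatives, flotillins, clathrin genes and caveolar proteins had 0 called genes of 6, 2, 16 and 9 tested by limma. At an unadjusted p under 0.05 there were 0, 0, 3 and 5, and limma-voom called 0, 0, 0 and 1. The barrier list had 1 of 4 called, Cldn5, a tight junction claudin, at 84.4 ± 11.3 FPKM in control and 180.1 ± 16.8 (log2 fold change 1.09, limma adjusted p = 0.0117). Of 6 tested osteoblast markers 3 were lower (sum 37.9 to 52.2 FPKM in control and 10.7 to 24.5), 1 of 5 megakaryocyte markers was higher, and the smooth muscle and pericyte sum was 7.96 to 11.8 against 10.2 to 11.8.

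The comparison of Lats2 cKO with control asked about loss of the kinase that restrains Yap1 and Taz. Cav1, Ptrf and Cav2 rose and passed (limma), 3 of 7 members, while 21.8% of the 12451 genes tested passed, 11.8% higher and 9.98% lower. The study had shown Cav1 and Cav2 among selected tip EC genes of these same libraries, so their direction is not independent evidence. Every member but Plvap had a fold change above 0, and the median was 0.40 against -0.0031 for all genes. All 7 members had groups that did not overlap, but with 2 libraries a group this held for 68.2% of all genes tested (34.0% higher and 34.2% lower).

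Cav1 was at 181 and 297 FPKM in control and 932 and 1009 in cKO. The lowest cKO library was well above the highest control. The ratio was 4.06 (log2 fold change 2.06 ± 0.254 SE, limma adjusted p = 0.0113), higher than for 98.9% of the genes tested, and Cav1 went from rank 124 to 243 among all gene rows in control to rank 30 to 35.

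Ptrf, whose product makes the coat, was at 61.1 and 98.0 FPKM in control and at 191 and 273 in cKO. The ratio was 2.92 (log2 fold change 1.55 ± 0.283 SE, limma adjusted p = 0.0224). Cav2 was at 58.9 and 83.4 in control and 123 and 151 in cKO, a ratio of 1.93 (0.95 ± 0.207 SE, limma adjusted p = 0.0327). For all 3 genes the second library of each group was the higher, and both cKO libraries exceeded both controls. Since Cav1 rose by more than its partners, Cav1/Cav2 was 3.07 and 3.56 in control and 7.57 and 6.69 in cKO, and Cav1/Ptrf 2.96 and 3.03 in control and 4.87 and 3.69 in cKO.

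The calls rested on few libraries. Without Lats2 control replicate 1 or replicate 2, 0 genes of the whole table were called by limma (2724 and 2878 had an unadjusted p under 0.05, 4 and 3 members among them), and the adjusted p of Cav1 was 0.131 and 0.110, of Ptrf 0.156 and 0.113, and of Cav2 0.204 and 0.122. Without cKO replicate 2, 931 genes were still called but not Cav1, Ptrf or Cav2 (limma adjusted p = 0.0596, 0.09996 and 0.133), and without cKO replicate 1, with 2701 genes called, Cav2 was lost (0.0664). In each of these fits the lone library of a group is assumed to vary like the other group. The log2 fold changes without any 1 library stayed at 1.70 to 2.42 for Cav1, 1.21 to 1.89 for Ptrf and 0.70 to 1.197 for Cav2, and limma-voom on recovered reads called all 3.

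The other cavins were less separated. Sdpr was at 238 and 255 FPKM in control and 297 and 307 in cKO (log2 fold change 0.29, limma adjusted p = 0.141), and turned to -0.01 with quantile normalization. Prkcdbp was at 674 and 696 against 795 and 942 (0.34, limma adjusted p = 0.170). Ehd2 was at 37.4 and 22.2 against 37.9 and 39.2 (0.40, 95% interval -0.23 to 1.03, limma adjusted p = 0.289), with 1 control level with the cKO libraries. Relative to Ptrf, Sdpr stood at 3.89 and 2.60 in control and 1.55 and 1.12 in cKO, and Prkcdbp at 7.10 to 11.0 in control and 3.45 to 4.16, so that within each library the 2 cavins were lower against cavin-1 in cKO.

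Plvap was at 3097 and 3024 FPKM in control and at 2511 and 2619.9 in cKO, lower in both. Its log2 fold change was -0.25 ± 0.165 SE (95% interval -0.67 to 0.16, limma adjusted p = 0.312). Quantile normalization gave -1.23 (adjusted p = 0.0155). That method sets values by rank, and Plvap went from rank 3 in both controls to rank 11 and 16 in cKO. Plvap/Cav1, which is free of scaling, was 17.1 and 10.2 in control and 2.69 and 2.60 in cKO.

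Markers of other cells moved in the same comparison. All 5 B cell markers, 4 of 5 neutrophil markers, 1 of 5 erythroid and 1 of 5 megakaryocyte markers were lower in cKO, with B cell sums of 219 to 264 FPKM in control and 39.3 to 60.2. Of 4 tested smooth muscle and pericyte markers 3 were higher, Acta2 (9.57 against 1.25 FPKM, log2 fold change 2.36, limma adjusted p = 0.0208), Tagln (30.1 against 7.22, 1.92, 0.0184) and Rgs5, with a sum of 7.999 and 13.3 FPKM in control and 38.5 and 61.3 in cKO. That sum was higher in the second library of each group, as Cav1, Ptrf and Cav2 were. With 2 libraries a group this order carries little weight, and its share over all genes was not computed. Endothelial markers had a median of 0.14 with 1 of 10 called, Ecscr, which was higher. The study's methods sort bone ECs with antibodies to CD31 and Emcn, but blood cell transcripts remained. Neutrophil sums were 1728 to 2593 FPKM in control and 635 to 769 in cKO. The part of cells of other types in the members' values was not tested. Osteoblast, chondrocyte, adipocyte and macrophage lists had 0 called genes by limma (0, 0, 1 and 1 at an unadjusted p under 0.05, and the same numbers by limma-voom), and 2 of 5 marrow stroma genes, Kitl and Cxcl12, were higher.

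Among the related genes, Ehd4 rose from 28.8 to 140 FPKM in cKO (log2 fold change 2.24, limma adjusted p = 0.00911) and Ehd3 fell from 42.6 to 18.3 (-1.17, 0.0128), the other 5 of 7 tested accessory genes not passing. Of the flotillins Flot2 fell (-0.49, limma adjusted p = 0.0370). Of 16 clathrin genes 5 were lower and 1 higher: Dab2, an endocytic adaptor, fell from 88.6 to 35.5 FPKM (-1.34, limma adjusted p = 0.0256), Fcho2 from 41.9 to 18.7 (-1.12, 0.0113) and Cltc from 88.4 to 50.8 (-0.81, 0.0474), while Cltb, a clathrin light chain, rose (0.83). Among 9 proteins described in caveolae, Nostrin (1.37) and Nos3 (0.61), the endothelial nitric oxide synthase, rose and Kdr, the main receptor of VEGF, fell from 331 to 173 (-0.95, limma adjusted p = 0.0204). Cgnl1 (0.73) and Slc2a1 (0.80) rose of 4 tested barrier genes.

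**Figure D4:**
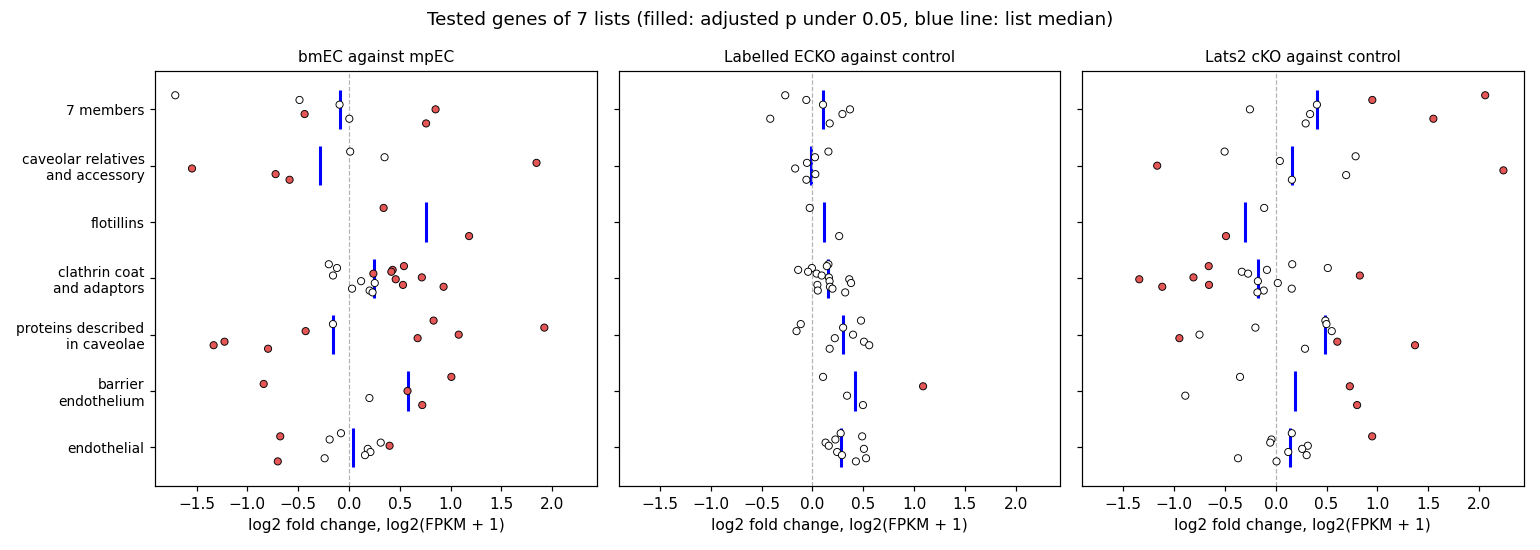
Log2 fold changes of the tested genes of 7 lists in the 3 comparisons, on the scale of log2(FPKM + 1), with filled points for adjusted p under 0.05 (limma) and blue lines for list medians. The 16 clathrin genes have a median of 0.25 in bmECs against mpECs and of -0.18 in Lats2 cKO against control, and the 7 members have medians of -0.09, 0.10 and 0.40.

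Across the 16 libraries, each centred on the mean of its table, the members did not move as 1 block. Pearson's r of log2(FPKM + 1) was 0.69 for Cav1 with Ptrf, 0.57 for Cav1 with Prkcdbp and 0.65 for Plvap with Sdpr, and -0.49 for Plvap with Cav1. These values are descriptions over libraries that share tables, controls and cell make-up, and Cav2 was left out because its mean in the Yap1/Taz table was under 5 FPKM. Among 5133 genes at 5 FPKM or more in each table, the closest to Cav1 were Sparcl1 (0.94), Lims2 (0.92) and Myadm (0.92), and those closest to Ptrf were Ywhah (0.93), Pam16 (0.93) and Txndc5 (0.92). For Plvap they were Adgrg1 (0.91), Peak1 (0.91) and Dag1 (0.87), and for Sdpr Itih5 (0.95), Fabp4 (0.92) and Fez2 (0.92). Prkcdbp lay nearest to Mtss1 (0.89), Sox7 (0.88) and Ldlrad4 (0.87), and Ehd2 less tightly to Itsn2 (0.78), Rest (0.77) and Cd151 (0.74).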

How the data were processed

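RNA of the 16 sorted libraries was sequenced with a stranded total RNA kit. The authors aligned the paired ends by TopHat (build GRCm38), took gene counts in HTSeq 0.6.1 and deposited FPKM values; the submitters' notes also name DESeq2. How counts became FPKM, the annotation and the strand setting are not given in the sources used here. Every value column was mapped to a sample (0 unmapped). From the deposited FPKM, log2(FPKM + 1) was fitted with limma 3.58.1 (R 4.3.3, trend = TRUE) for each pair of groups by itself, over every gene averaging 1 FPKM or more, two-sided, with Benjamini-Hochberg adjustment over all of them and calls at an adjusted p under 0.05. Fold changes on this scale understate those of low genes. The fit was first tested on simulated data.

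Reads were recovered from FPKM with gene lengths of GENCODE M21 (62.6% to 70.2% of low values fell within 0.02 of a whole read); they are estimates and served for depth, limma-voom and the check of replicates. The Lats2 table lost 4 rows with doubled names. Figures were made with matplotlib 3.10.9.

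The members and the gene lists were chosen with earlier results of these data known. Named in the text are all 7 members, the targeted genes, at most 4 called genes of each list that average 5 FPKM or more and have the largest fold changes (markers of low level are named as list members), and for each member its 3 nearest genes by Pearson's r. Alternatives were another pseudocount (0.1), a filter at 5 FPKM or none, quantile normalization, median-ratio scaling, scaling by 10 endothelial genes, no trend, limma-voom, a replicate block, a stricter rule and leaving out each library. No fit spans 2 tables.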

Additional observations from a re-analysis of the deposited data

Results flagged for a closer look

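Members whose libraries all moved one way in one comparison and all the opposite way in another were singled out. Plvap had a log2 fold change of 0.85 in bmECs against mpECs and -0.25 in Lats2 cKO against control. Cav1 had -1.71 and 2.06 in the same comparisons, and Prkcdbp -0.44 and 0.34. Ptrf had -0.41 in the libraries labelled ECKO against control and 1.55 in Lats2 cKO against control. Each case uses the Lats2 comparison, where all 7 members and 68.2% of all genes tested did not overlap between groups of 2 libraries. The share of all genes that meet this rule was not computed. The difference between comparisons was not tested in any of the 4 cases, since the tables were normalized separately, and of these values only those of Plvap and Prkcdbp in bmECs and of Cav1 and Ptrf in Lats2 cKO passed the limma test by themselves.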

How the results depend on the processing

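The number of members called was 3 for bmECs against mpECs, and 1 to 4 over fits without 1 library each; it was 1 under the stricter rule (adjusted p under 0.01 and absolute log2 fold change over 0.5). In the libraries labelled ECKO it was 0 and became 1 (Ptrf) with scaling by endothelial genes. In Lats2 cKO it was 3, became 1 with no filter and 0 under the stricter rule, and was 0 to 2 over fits without 1 library each; in the fits with 0 members called, 3 or 4 members had an unadjusted p under 0.05, while limma-voom on all libraries called 3. Signs turned for Ptrf in bmECs (-0.10 with quantile normalization, -0.011 with median-ratio scaling, -0.20 with limma-voom, and -0.16 to 0.11 without 1 library), for Ehd2 there (-0.25 to 0.035 without 1 library), for Sdpr, Prkcdbp and Ehd2 under the label ECKO with endothelial scaling (-0.15, -0.025 and -0.19), for Cav2 there (-0.20 to 0.065 without 1 library, 0.018 without control replicate 2), and for Sdpr in Lats2 cKO (-0.014 with quantile normalization). The cause was not tested. The genes called over each table were 2682, 148 and 2711 in the 3 comparisons. They became 1525 for bmECs with endothelial scaling, 1 (no filter), 17 (no trend), 356 (limma-voom) and 2485 (endothelial scaling) under the label ECKO, with 1 to 293 without 1 library, and 1389 (no filter) in Lats2 cKO, with 0 to 2701 without 1 library. Higher calls were 1481 of 2682 in bmECs and 903 of 3552 with limma-voom, 100 of 148 under the label ECKO and 78 of 2485 with endothelial scaling, and 1468 of 2711 in Lats2 cKO, 1351 of 3447 with limma-voom and 1039 of 2615 with endothelial scaling. Of 321 member values under an alternative, 272 kept direction and side of the threshold, 29 lost the call, 8 gained one and 12 turned. Only the 3 members called in bmECs and the 3 called in Lats2 cKO could lose a call, and most of the 272 were uncalled in both fits. In bmECs, Plvap kept its call in 6 of 15 alternative fits, Sdpr in 15 and Prkcdbp in 13, the stricter rule left aside. All-gene medians moved by -0.29 and -0.14 with endothelial scaling (label ECKO, Lats2 cKO) and by -0.21 and -0.13 with limma-voom (bmECs, Lats2 cKO).

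Same-numbered libraries had r of deviations of 0.31, 0.09 and 0.10 in bmECs and mpECs, where differently numbered ones had -0.21 to 0.12. Under the label ECKO the same-number values were -0.18, -0.12 and -0.16. In Lats2 the r of 0.07 cannot decide, since 2 libraries a group give every pair the same size of r. Whether the numbers pair the samples is not given in the sources used here, and the main fits did not pair them. With the replicate number as a block, 4 members were called in bmECs (Cav1 added, adjusted p = 0.0241), 0 under the label ECKO and 3 in Lats2 cKO, and the genes called went from 2682 to 3072, from 148 to 45 and from 2711 to 2655.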
